A study of Mus musculus with 8 samples.

Results

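The late course of the injured mouse kidney was examined by comparing cells taken 14 days after unilateral renal ischemia-reperfusion injury (IRI) with cells taken at 7 days, both from mice given the vehicle. Cells were chosen by the condition recorded for each barcode and by 3 limits: more than 300 detected genes, fewer than 20000 counts, and less than 25% of counts from mitochondrial genes. This left 6110 of 12968 barcodes (47.1%) at day 7 and 17261 of 18353 (94.1%) at day 14, or 23371 of the 90855 cells that passed the same limits in the whole series. All mice were male C57BL/6. The left renal pedicle was clamped for 30 minutes and the right kidney was left in place. Vehicle was DMSO, injected intraperitoneally 30 minutes before surgery and repeated until the kidneys were collected, so neither group was free of solvent or of surgery. Mouse age was not given in the sources used here.

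Each condition was 1 pool of kidney suspensions from 3 mice. Live cells were enriched for leukocytes by sorting on dye exclusion and light scatter, so shares of cells below describe the sorted suspension and not the organ. Libraries were made by split-pool barcoding, in which fixed cells receive their barcodes over rounds of mixing and are then divided into 8 sublibraries. The sublibraries are technical divisions of the same pool. With 1 pool per condition no test between days was possible, and no p-value is given. Intervals are exact 95% intervals that cover counting error only, SD is over the 8 sublibraries, and a gene is said to have risen or fallen only when its level changed at least 2-fold. Summed counts were 21269083 at day 7 and 51399604 at day 14, with medians of 2526.5 and 2391 per cell. The days differed in quality in the barcodes left out: 46.3% of day 7 barcodes and 3.90% of day 14 barcodes exceeded the mitochondrial limit. More than 300 genes were detected in 6664 of 12968 day 7 barcodes and in 17651 of 18353 day 14 barcodes. Doublets were kept, and 13.2% of cells on each day resembled simulated doublets. No full barcode occurred more than once, and 2118 well combinations (4402 cells) were seen in more than 1 sublibrary.

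After ischemia, neutrophils and monocytes enter the kidney first, and monocytes can differentiate there into macrophages that clear debris. Dendritic cells and T cells gather when repair is incomplete. Proximal tubule cells, the main target of ischemia, lose transport functions after injury and can persist in an injured state marked by adhesion and signalling genes.

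Cells were assigned to classes by a gate on marker genes, which required at least 2 markers of the class and a summed marker score above 2.5. A gate is a range on a score and not a sorted population. Of the cells in the macrophage gate, 636 of 7839 lay within 0.5 of the threshold, as did 97 of 922 in the classical monocyte gate and 42 of 3879 in the neutrophil gate. The highest-scoring other class in the classical monocyte gate was macrophage, with a median score of 1.31 against 4.89 for the gate's own markers. No class was given to 14.2% of cells at day 7 and 14.1% at day 14.

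The mix of cells differed between the days. The neutrophil gate held 28.3% of cells at day 7 (SD 1.60) and 12.5% at day 14 (SD 0.564), a log2 ratio of −1.18 (−1.27 to −1.09). The sublibraries ranged from 25.8% to 30.7% at day 7 and from 11.6% to 13.3% at day 14, and the ranges did not overlap. The classical monocyte gate went from 7.43% (SD 0.866) to 2.71% (SD 0.243), with a log2 ratio of −1.45 (−1.64 to −1.27). Macrophages, the largest class at day 14, went from 24.9% (SD 1.20) to 36.6% (SD 1.38), a log2 ratio of 0.56 (0.48 to 0.64). All 8 sublibraries had these directions.

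The classical monocyte share depended on how cells were classed. When each cell took the most common class of its transcriptome cluster, the log2 ratio was −0.13. Of gated monocytes, 63.7% at day 7 lay in a cluster (cluster 3) in which macrophages were the most common class, against 8.97% at day 14. The cluster in which classical monocytes were most common (cluster 8) held 26.0% of gated monocytes at day 7 and 56.8% at day 14. The macrophage share had a log2 ratio of 0.15 by cluster.

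Dendritic cells and T cells took a larger share at day 14. All dendritic cell classes together went from 9.92% to 16.8% of cells, a log2 ratio of 0.76 (0.64 to 0.89). Conventional dendritic cells of type 2 (cDC2), which present antigen mainly to CD4+ T cells, went from 5.61% (SD 0.887) to 10.1% (log2 ratio 0.85, 0.68 to 1.02). Type 1 cells (cDC1), which cross-present antigen to CD8+ T cells, went from 2.82% (SD 0.753) to 4.25% (SD 0.428). Migratory dendritic cells, marked by *Ccr7* and *Ccl22*, went from 48 cells (0.786%) to 248 cells (1.44%). The T cell gate held 119 cells (1.95%, SD 0.652) at day 7 and 1067 cells (6.18%, SD 0.418) at day 14, a log2 ratio of 1.67 (1.39 to 1.95). The lowest sublibrary at day 14 was at 5.54% and the highest at day 7 at 2.98%.

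Natural killer (NK) and B cells had close shares on the 2 days. NK cells were 1.21% and 1.23% of cells, a log2 ratio of 0.02 (−0.37 to 0.42), and B cells were 3.44% and 3.38%, a log2 ratio of −0.03 (−0.26 to 0.21). Nonclassical monocytes, the patrolling form, were 0.917% and 1.12%, and 6 of 8 sublibraries had the higher share at day 14; the log2 ratio of 0.29 became 1.55 with cells thinned to 500 counts. Among parenchymal cells, the proximal tubule gate went from 2.21% (SD 0.538) to 0.979% (SD 0.202) and the endothelial gate from 3.85% (SD 0.699) to 2.68% (SD 0.418), with 7 of 8 sublibraries lower for the latter. The loop of Henle gate was 0.786% and 0.504%, and the distal tubule or collecting duct gate 0.573% and 0.637%. Stromal cells went from 6 cells (0.0982%) to 72 cells (0.417%), a log2 ratio of 2.09 (0.89 to 3.58), higher in 8 of 8 sublibraries. By cluster classes the log2 ratio of the proximal tubule share was −0.56 in place of −1.17. In shares, a fall in one class raises the others, and fewer cells of a class cannot be told apart from more cells of the rest. Leukocyte classes together were 78.1% and 80.7% of cells.

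**Figure D1:**
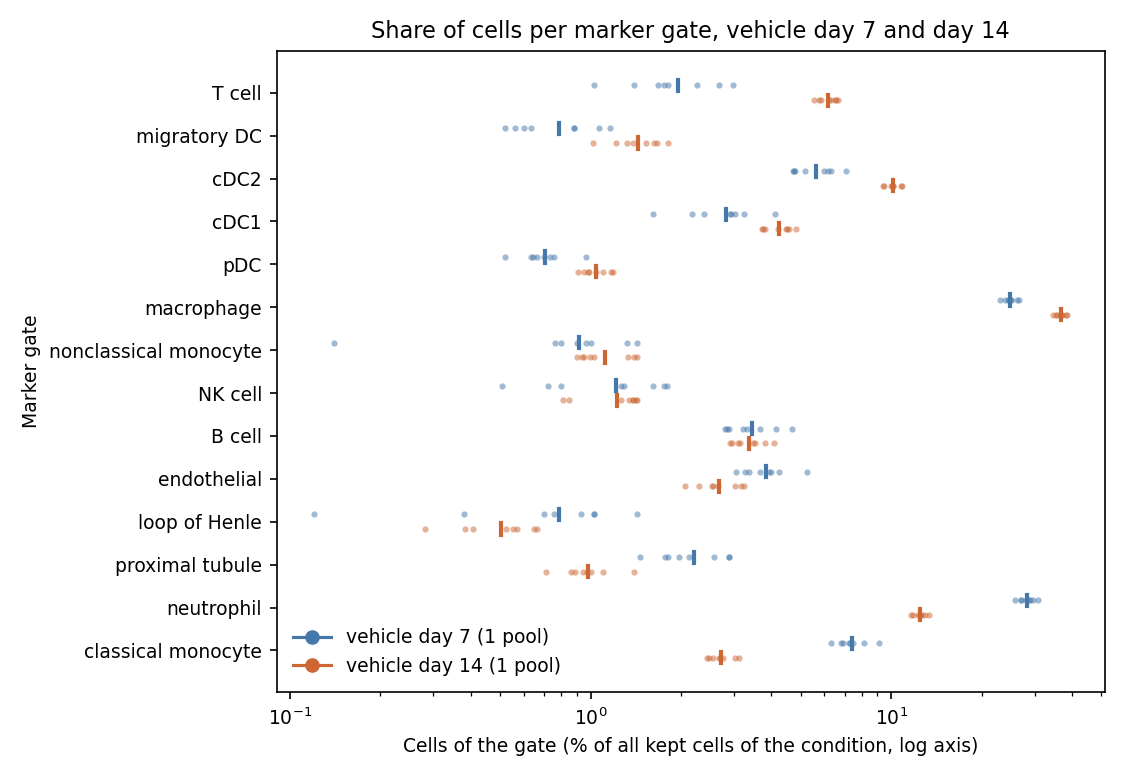
Share of cells in each marker gate with at least 40 cells on both days (percent of all kept cells of the condition, log axis). Points are the 8 sublibraries of each pool and vertical ticks the pool; neutrophil and classical monocyte shares are lower at day 14 and the T cell share is higher, with no overlap between the points of the 2 days.

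Across all cells, more genes fell than rose among those of moderate or high level, while with no filter beyond 3 counts 3550 were higher and 1548 lower. Levels are counts scaled to a common total (CPM). Among 5879 genes whose level averaged 20 CPM or more over both days, 79 fell from day 7 to day 14 (1.34%) and 39 rose (0.663%), or 2.01% either way. The median gene had a log2 ratio of 0.21. Relative to it, 126 genes were at least 2-fold lower (2.14%) and 17 at least 2-fold higher (0.289%), so lists are described below by their position above or below the median. Of the 79 and 39 genes, 78 and 37 had the same direction in all 8 sublibraries.

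A few very abundant genes took a smaller part of the counts at day 14. *Rn18s-rs5*, *Cdk8*, *Cmss1*, *Lars2* and *Gphn*, chosen after their values were seen, took 28.3% of counts at day 7 and 20.4% at day 14, and this arithmetic alone moves all other genes up by 0.15 on the log2 scale. *Cdk8*, a kinase of the Mediator complex, was lower in each of the 9 gates examined, by −1.54 in endothelial cells to −2.20 in proximal tubule, with a level in macrophages of 36699 CPM at day 7 and 8980 CPM at day 14. *Ccnb1ip1* was also at least 2-fold lower in all 9 gates (−1.19 to −1.75), and the Cajal body RNA *Scarna2* by 1.04 or more on the log2 scale. These genes moved alike in unrelated cell types. The share of barcodes over the mitochondrial limit (46.3% and 3.90%) moved with the day too, and its part in them was not tested. The annotated span of *Ccnb1ip1* overlaps that of the RNA gene *Rpph1* on the minus strand of chromosome 14. Whether they share reads was not tested.

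Of 5 CXC chemokine genes tested in the whole suspension, 3 fell and 2 lay above the median gene, where 1.34% of all genes fell. Those that fell include *Cxcl3* and *Cxcl2*, which attract neutrophils. *Cxcl3* (ENSMUSG00000029379, GRCm38 chromosome 5, 90786103 to 90789600, plus strand) stood at 51.2 CPM at day 7 (34.3 to 65.3 over sublibraries) and 2.41 CPM at day 14 (1.59 to 3.29), 21.2-fold lower with a log2 ratio of −4.41 (−4.69 to −4.14). The sublibraries of the 2 days did not overlap. *Cxcl2*, a related chemokine, fell from 711 CPM (627 to 832) to 161 CPM (142 to 171), a log2 ratio of −2.15 (−2.19 to −2.11). *Cxcl1*, another chemokine that attracts neutrophils, was under the level limit with 17.3 CPM and 5.31 CPM.

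*Cxcl2* and *Cxcl3* lie near each other on chromosome 5 and fell together, so their promoters are shown. The 150 bases before the annotated RefSeq start site were read from GRCm38.p6, plus strand, at chr5:90903749-90903898 for *Cxcl2* and chr5:90785951-90786100 for *Cxcl3*. Capitals mark GGGAATTTCCC, the longest run of bases that both windows share, which is of the type bound by NF-kappaB.
Cxcl2: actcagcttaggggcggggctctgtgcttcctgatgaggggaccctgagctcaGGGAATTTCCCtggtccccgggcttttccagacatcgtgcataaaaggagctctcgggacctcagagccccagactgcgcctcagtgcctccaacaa
Cxcl3: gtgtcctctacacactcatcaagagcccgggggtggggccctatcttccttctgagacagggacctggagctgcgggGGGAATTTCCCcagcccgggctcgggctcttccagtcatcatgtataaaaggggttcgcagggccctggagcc
The run of 11 bases ended 86 bases before the start site of *Cxcl2* and 62 bases before that of *Cxcl3*. Searched on both strands of windows of 300 bases around each start site, it was found in 14 of 32851 mouse windows (0.0426%) and in 3 of the 10 CXC chemokine genes matched (*Cxcl1*, *Cxcl2* and *Cxcl3*). The run was picked from these sequences, and a match of letters says nothing of binding.

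The other named genes that fell most include several with roles in inflammation or stress. *F10*, coagulation factor X, fell from 130 to 17.5 CPM (−2.90), and *Sgms2*, a sphingomyelin synthase, from 279 to 44.3 CPM (−2.66). *Il36g*, an interleukin 1 family cytokine, fell from 91.0 to 16.1 CPM (−2.50), and *Slc7a11*, the cystine transporter that supplies glutathione synthesis, from 556 to 112 CPM (−2.31). *Mmp19* (−2.49), *Pdpn* (−2.44), which encodes podoplanin, and *G0s2* (55.6 to 13.9 CPM), a lipase inhibitor abundant in neutrophils, fell as well. No range of sublibraries overlapped between days for any of these genes, *Cxcl2* and *Cxcl3* included.

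Several of the highest genes are known from T cells. *Tox*, a regulator of T cell development and exhaustion, rose from 33.5 CPM (25.8 to 43.2 over sublibraries) to 115 CPM (86.2 to 138), a log2 ratio of 1.78 (1.67 to 1.90). *Bcl11b* (1.59), *Cd247* (1.47), *Cd226* (1.43) and *Camk4* (1.33), which are T cell transcription, receptor or signalling genes, rose with it. Within the T cell gate itself *Cd247* was 513 and 550 CPM and *Bcl11b* 617 and 725 CPM. *St8sia6* (19.8 to 56.2 CPM) and *Dscam* (1.45) rose as well. So did *Cp*, which encodes the copper-carrying ferroxidase ceruloplasmin (16.0 to 51.5 CPM, 1.69, SD 0.590), and *Vcam1*, an adhesion molecule (19.9 to 49.8 CPM, 1.32, SD 0.608). *St8sia6*, *Cp* and *Vcam1* were under the level limit at day 7 and passed it through day 14 alone, which favours genes that rose.

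**Figure D2:**
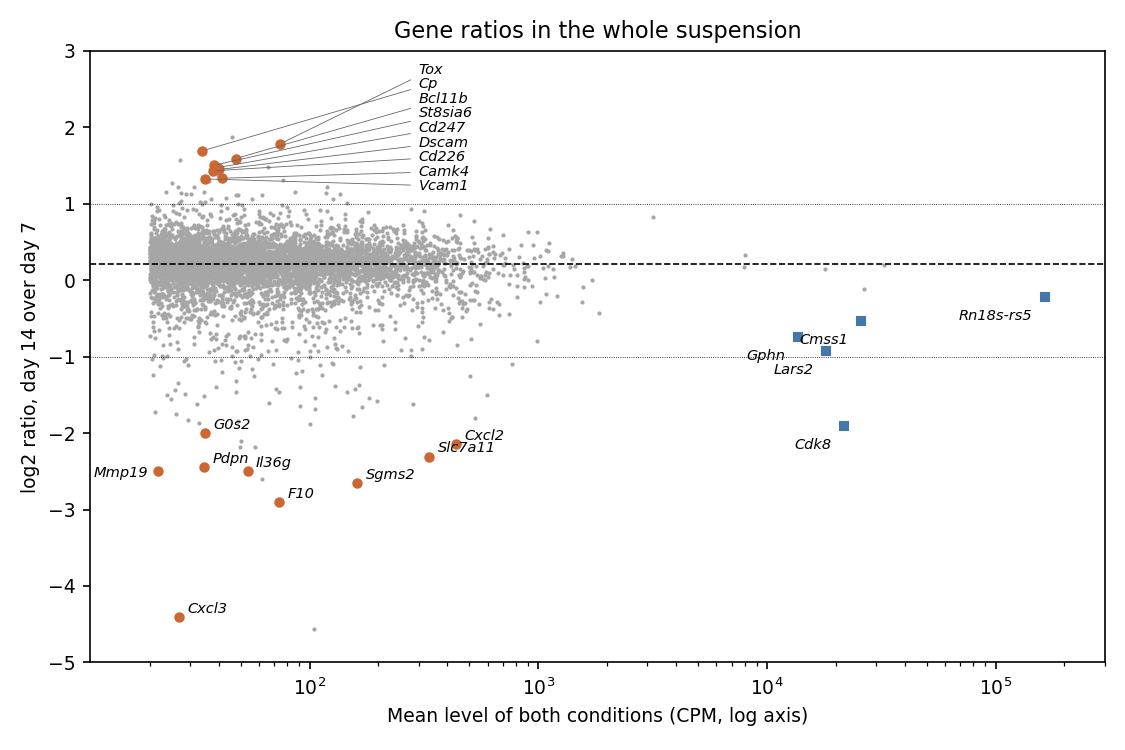
Log2 ratio of day 14 over day 7 against mean level (CPM, log axis) for 5879 genes in the whole suspension. Named genes are orange, 5 very abundant genes are blue squares, the dashed line is the median gene (0.21) and dotted lines mark 2-fold; *Cxcl3* lies lowest of the genes marked in orange.

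The question of whether these changes followed the mix of cells was addressed by giving day 14 the class mix of day 7. With composition held in this way, 36 of the 79 genes that fell and 14 of the 39 that rose still passed 2-fold. Over all genes 14 were higher and 37 lower with composition held, and 5 and 62 relative to the median gene. When only the mix was changed and each class kept its day 7 profile, 1 and 1 did. *Cxcl3* kept a log2 ratio of −3.73 with composition held, while the change of mix alone gave −0.94. *Cp* (1.79) and *Vcam1* (1.33), which passed the level limit through day 14 alone, also kept their size. *Tox* (1.24), *Bcl11b* (1.07) and *Cd226* (1.04) stayed past 2-fold. *Cd247* went from 1.47 to 0.95 and *Camk4* from 1.33 to 0.92. Summed T cell markers were 3.43 CPM and 14.5 CPM in the macrophage gate and 6.81 and 42.3 CPM in the neutrophil gate. Their part in the composition-held values of T cell genes was not tested.

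**Figure D3:**
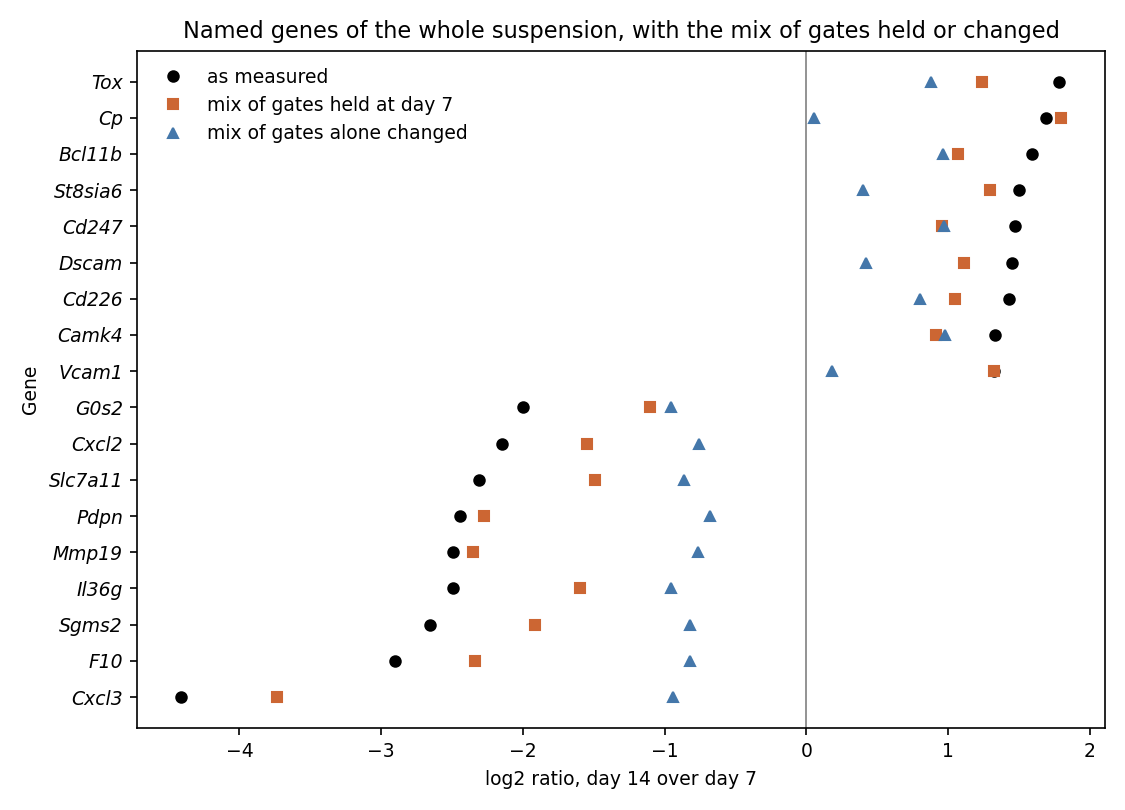
Log2 ratios of 18 named genes as measured (circles), with the class mix held at day 7 (squares) and with the mix alone changed (triangles). *Cp* and *Vcam1* change little when the mix is held, and *Il36g* and *Slc7a11* move toward 0.

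Gene lists in the whole suspension were read by the position of their members around the median gene. All 11 tested genes of major histocompatibility complex (MHC) class II presentation lay above the median gene, with a list median of 0.58 against 0.21, and none reached 2-fold. *Cd74*, the invariant chain, went from 2300 to 4074 CPM (0.82, SD 0.11), and *H2-Ab1* from 709 to 1094 CPM (0.63). Of 19 interferon-stimulated genes, 18 lay above the median, with a list median of 0.55 and a largest ratio of 0.78 for *Gbp2*. Of 8 CC chemokine genes tested, 7 lay below the median gene, with a list median of −0.42. In that list 1 gene fell and 1 rose, where 1.34% and 0.663% of all genes did. The gene that rose was *Ccl22*, a chemokine of mature dendritic cells, from 13.6 to 40.6 CPM (1.57). It passed the level limit through day 14 alone.

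The neutrophil granule, interleukin 1, and glycolysis and hypoxia lists lay mostly below the median gene. The complement (list median 0.31) and NF-kappaB (0.24) lists were split evenly around it. Over all genes tested, 1.34% fell. Of 12 neutrophil granule and recruitment genes, 11 were below the median and 5 fell. Their list median of −0.80 became −0.05 with composition held. *S100a8*, part of calprotectin, fell from 81.3 to 18.9 CPM (−2.10) and *Mmp9*, a gelatinase, from 108 to 39.0 CPM (−1.47). In the interleukin 1 list 9 of 12 genes were below the median and 4 fell (*Il36g*, *Il1rap*, *Il1rn* and *Il1a*). The median of this list, −0.40, became 0.03 with composition held. *Il1b* itself went from 2125 to 1571 CPM (−0.44, −0.03 with composition held). Of 17 glycolysis and hypoxia genes, 14 were below the median and 4 fell, among them *Egln3*, an oxygen-sensing hydroxylase (−1.75), and *Slc16a3*, a lactate exporter (−1.32). The signalling gene *Syk*, the target of the drug used elsewhere in the series, was level at 549 and 559 CPM (0.03), while the C-type lectin receptors *Clec4d* (−1.78) and *Clec4e* (−1.55), which signal through it, were the 2 that fell of 26 genes tested in the list, 18 of which were above 0 and 8 above the median. With composition held these were −0.98 and −0.69.

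By marker gate, classical monocytes had the most genes past 2-fold among leukocytes, an order that cluster classes did not keep (31, against 58 in macrophages). Of 2943 genes averaging 50 CPM or more, the limit used in every gate, 225 rose (7.65%) and 155 fell (5.27%) in the classical monocyte gate. Relative to the median gene (0.20) the split was 118 higher (4.01%) and 208 lower (7.07%).

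Of 4 CXC chemokine genes tested in this gate 3 fell, and *Cxcl16* rose (38.0 to 109 CPM, 1.52). *Cxcl16* passed the level limit through day 14 alone. *Cxcl3* fell from 278 to 4 counts, a log2 ratio of −5.62 with a counting interval of −7.51 to −4.25. *Cxcl2* fell from 801 to 73.6 CPM (−3.44), *Pf4*, platelet factor 4, from 197 to 8.40 CPM (−4.55), and all 4 CC chemokines tested fell, including the monocyte attractants *Ccl2* (−2.87) and *Ccl7* (−3.77). Of 12 injury macrophage genes, 8 fell and 1, the elastase *Mmp12*, rose (1.01). Fibronectin (*Fn1*) fell from 3822 to 908 CPM (−2.07), thrombospondin 1 (*Thbs1*) from 3780 to 678 CPM (−2.48), and osteopontin (*Spp1*) from 718 to 222 CPM (−1.70). The growth factor *Vegfa* fell from 470 to 64.6 CPM (−2.86). Of 11 glycolysis and hypoxia genes, 8 fell, among them *Eno1* (−1.96), *Gapdh* (−1.45), *Ldha* (−1.37) and *Hif1a* (−1.22), the oxygen-regulated transcription factor. *Pdpn* fell from 286 to 10.3 CPM (−4.79).

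Antigen presentation and interferon genes rose in the same gate. Of 8 MHC class II genes, 6 rose and the list median was 1.84. *H2-Ab1* rose from 157 CPM (69.5 to 259) to 699 CPM (569 to 786), a log2 ratio of 2.16 (1.98 to 2.33). *Cd74* rose from 660 to 2707 CPM (2.04) and the class II transactivator *Ciita* from 96.0 to 360 CPM (1.91). All 6 interferon-stimulated genes tested, from a list of 32, rose, led by *Oas2* (38.9 to 138 CPM, 1.83) and *Stat2* (38.4 to 120 CPM, 1.64). *Oas2* and *Stat2* were under the level limit at day 7 and passed it through day 14 alone. Such entry favours genes that rose, so this count does not describe the whole list. Of 13 heat shock genes 5 rose, including *Hsph1* (86.9 to 278 CPM, 1.68). The other named genes were *Ust* (2.40), *Ccnd1*, cyclin D1 (2.11), and *Rtn1* (2.04), of which *Rtn1* overlapped between days over sublibraries and had 0.38 by cluster classes.

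The gate held cells of different clusters on the 2 days. By cluster classes 31 genes passed 2-fold in place of 380, *Cxcl3* had a log2 ratio of −0.11, *Pdpn* of −0.53 and *H2-Ab1* of 0.70. Gated cells that lay in cluster 3 had *Cxcl2* at 1039 CPM at day 7 (289 cells) and 165 CPM at day 14 (42 cells), a log2 ratio of −2.66. Those in cluster 8 had 111 and 50.1 CPM (118 and 266 cells), a log2 ratio of −1.15. *Cd74* was higher at day 14 in both, by 2.99 in cluster 3 and 1.44 in cluster 8. For *Fn1*, *Ccl2*, *Eno1*, *Vegfa*, *Thbs1* and *Oas2* the ratios within clusters 3 and 8 were smaller than in the gate. *Fn1* had log2 ratios of −0.92 and −0.41, *Ccl2* of −1.01 and −0.72, *Eno1* of −1.64 and −0.44, *Vegfa* of −0.66 and −1.27, *Thbs1* of −1.005 and −0.97, and *Oas2* of 0.96 and 0.77. *Spp1* was lower in cluster 3 (−1.28) but higher in cluster 8, at 75.8 and 121 CPM (0.67, 0.09 to 1.30). *Cxcl3* was lower in cluster 3 (−4.73), from 1 count at day 14, and in cluster 8 its 1 and 2 counts were too few to give a direction (−4.22 to 5.93). Summed markers of cDC2 in the gate were 127 CPM and 330 CPM, and of nonclassical monocytes 61.3 CPM and 227 CPM. Their part in the rise of MHC class II genes was not tested.

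**Figure D4:**
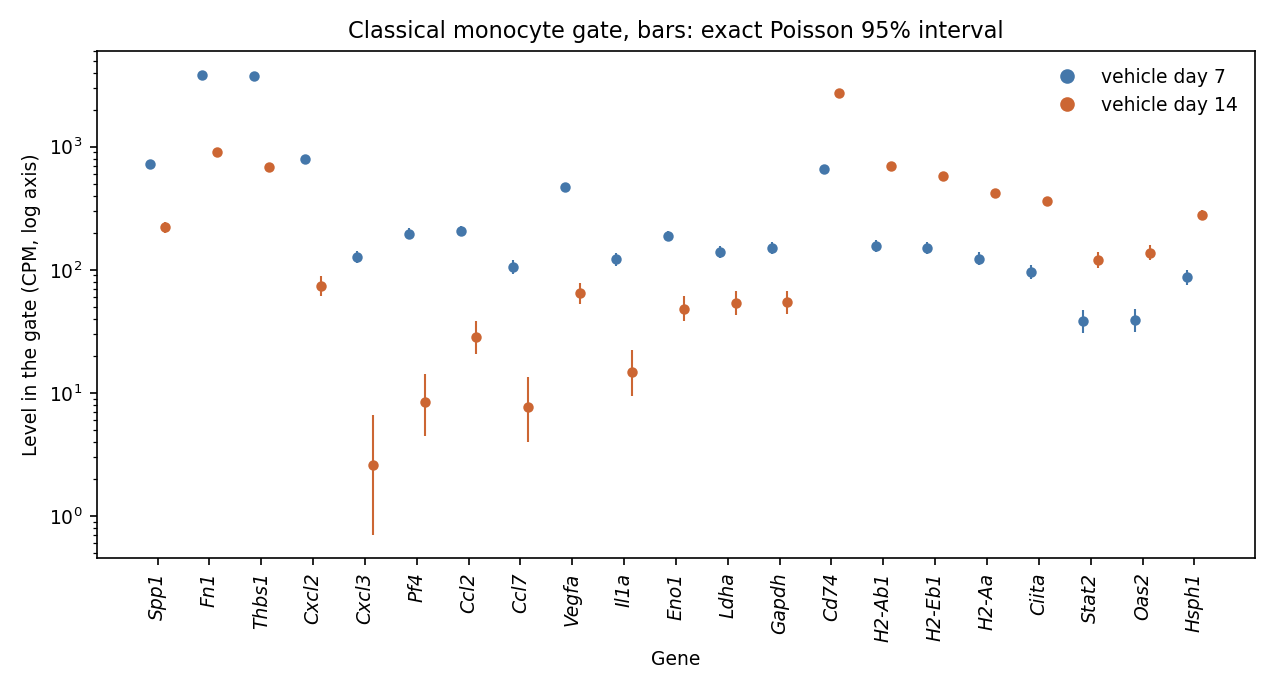
Level of 21 genes in the classical monocyte gate (CPM, log axis) at day 7 and day 14, with exact Poisson 95% intervals for counting error. Injury, chemokine and glycolysis genes on the left are lower at day 14, and MHC class II, interferon-stimulated and heat shock genes on the right are higher.

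In the neutrophil gate 2 of 3 CXC chemokine genes tested fell and *Cxcl16*, a membrane-bound chemokine, rose (48.0 to 120 CPM, 1.33). *Cxcl16* was under the level limit at day 7 here too. Of 2962 genes tested in this gate, 119 rose (4.02%) and 53 fell (1.79%), with 54 higher (1.82%) and 86 lower (2.9%) relative to the median gene (0.19). *Cxcl2* fell from 3114 to 1129 CPM (−1.46, SD 0.10), *Cxcl3* from 198 CPM (144 to 269 over sublibraries) to 17.7 CPM (10.5 to 22.6), a log2 ratio of −3.49 (−3.89 to −3.11), and *F10* from 511 CPM (408 to 630) to 54.9 CPM (29.5 to 86.3), a log2 ratio of −3.22. *Cxcl3* and *F10* did not overlap between days. *Hilpda*, a hypoxia-induced lipid droplet protein (135 to 9.15 CPM, −3.88), *Garin1a* (94.7 to 6.00 CPM, −3.98) and *Noct*, a circadian phosphatase (254 to 46.3 CPM, −2.45), also fell. On the plus strand of chromosome 6, *Hilpda* ends at 29275446 and *Garin1a* starts at 29279593. Whether they share reads was not tested. Of 13 heat shock and stress genes, 10 were above the median gene, 2 rose and 1 fell, with a list median of 0.66. *Hsph1*, a chaperone, rose from 71.3 to 190 CPM (1.41), and *Gadd45a*, a growth arrest gene, fell from 107 to 45.4 CPM (−1.24).

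All 8 interleukin 1 genes tested in neutrophils lay below the median gene. *Il1b* stood at 8937 and 8166 CPM (−0.13), *Nlrp3*, an inflammasome sensor, at 1621 and 980 CPM (−0.73), and *Il36g* fell from 562 to 177 CPM (−1.67). *Il23a*, a cytokine subunit that supports type 17 responses, fell from 194 to 48.6 CPM (−1.99), and the formyl peptide receptor *Fpr1* from 88.8 to 30.3 CPM (−1.55). *G0s2* fell from 353 to 158 CPM (−1.16), whereas *Ptgs2*, cyclooxygenase 2, was level at 2193 and 2323 CPM (0.08). All 10 granule and recruitment genes tested were below the median gene.

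Genes that rose in the neutrophil gate included genes of other cells. All 6 MHC class II genes tested rose, with *Cd74* at 747 and 2043 CPM (1.45), and so did *Cx3cr1* (1.27), *Axl* (1.35), *Mertk* (1.31) and *Mrc1* (1.21), which macrophages express. All 7 macrophage markers were detected on both days, and their summed level in the gate was 628 CPM at day 7 and 1185 CPM at day 14. Markers of cDC2 summed to 97.3 and 239 CPM, and doublets were 15.6% and 19.2% of the gate. Their part in these rises was not tested. *P2rx7*, an ATP-gated channel (25.9 to 95.5 CPM, 1.88), *Rftn1* (1.66), *Nlrc5*, the MHC class I transactivator (33.1 to 104.6 CPM, 1.66), and *Negr1* (1.59) were among the 5 highest with *Ighm* (2.04, and 0.81 by cluster classes), of which *Ighm* and *Negr1* overlapped between days.

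In the macrophage gate few genes passed 2-fold, although by cluster classes macrophages had 58 and classical monocytes 31. Of 3089 genes tested, 7 rose (0.227%) and 10 fell (0.324%), and 1 was higher (0.0324%) and 15 lower (0.486%) relative to the median gene (0.22). *Nr4a3*, an orphan nuclear receptor induced by acute signals, rose from 97.0 CPM (45.7 to 136) to 251 CPM (201 to 296), a log2 ratio of 1.37 (1.26 to 1.49). Complement *C3* (36.0 to 81.9 CPM, 1.18), the kinase *Nuak1* (1.14), *Vcam1* (40.8 to 88.2 CPM, 1.11) and *Tbc1d4* (64.9 to 139 CPM) rose as well. Relative to the median gene, *Nr4a3* was the only one of these 5 to stay past 2-fold, and by cluster classes it had a log2 ratio of 0.85. Named genes that fell included *Cdk8*, *Ccnb1ip1*, *Scarna2* and *Adgrl3* (148 to 55.1 CPM, −1.43). MHC class II genes lay on both sides of the median (6 of 9 above), and 12 of 12 NF-kappaB genes tested were above 0, with 11 above the median and a list median of 0.51. All 5 interleukin 1 genes tested also lay above the median (list median 0.41), while those tested in neutrophils lay below theirs.

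Early-response genes were higher in cDC1, as in several but not all other gates. In cDC1, 33 of 3044 genes rose (1.08%) and 9 fell (0.296%), and relative to the median gene 12 were higher (0.394%) and 14 lower (0.46%). The 42 genes past 2-fold became 69 without doublets. Of 16 immediate early and NR4A genes, 5 rose and 15 were above the median gene (0.15), with a list median of 0.75. In the proximal tubule gate 8 of 16 rose (list median 1.01), where 11.9% of all genes tested did, and 14 of 15 in T cells, 13 of 16 in endothelium and 16 of 20 in cDC2 were above the median gene, with 1, 2 and 0 past 2-fold, against 1.65%, 2.57% and 0.27% of all genes. In neutrophils 10 of 21 and in classical monocytes 6 of 18 were above it. *Egr3* rose from 19 counts at day 7 to 295 at day 14, a log2 ratio of 2.11 (1.44 to 2.86). *Nr4a3* rose from 155 to 612 CPM (1.98), *Nr4a2* from 116 to 406 CPM (1.81) and *Nr4a1* from 194 to 409 CPM (1.07). With 1 pool per day, the day cannot be told apart from the pool in such acute genes. *Zc3h12c* (1.37) and *Cmtr1* (1.37) completed the 5 highest. MHC class II genes were split evenly, with 5 of 10 above the median.

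In cDC2, 8 of 2965 genes rose (0.27%) and 13 fell (0.438%), and relative to the median gene (0.17) 5 were higher (0.169%) and 23 lower (0.776%). *Slc15a2*, a peptide transporter, rose from 30.7 to 102 CPM (1.73), *Adam19* from 30.2 to 75.5 CPM (1.32), *Negr1* from 51.1 to 122.5 CPM (1.26), *Bag3* from 34.0 to 78.9 CPM (1.21) and *Hsph1* from 181 to 408 CPM (1.17). *Slc15a2*, *Bag3* and *Slc7a11* overlapped between days. *Slc7a11* (−1.41), the long noncoding RNA *Morrbid* (−1.30), *Cxcl2* (−1.27), *Thbs1* (−1.20) and *Fn1* (−1.18) fell. By cluster classes *Negr1* (0.88), *Bag3* (0.86), *Hsph1* (0.81), *Slc7a11* (−0.55) and *Morrbid* (−0.61) did not reach 2-fold, and cluster 3 held 14.9% of the gate at day 7 and 6.47% at day 14. *Ifih1*, a sensor of viral RNA, rose from 40.1 to 83.3 CPM (1.06) and was under the level limit at day 7.

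Lymphocytes were few at day 7, so their gene values are coarse. In the T cell gate 52 of 3147 genes rose (1.65%) and 28 fell (0.89%), from 119 cells at day 7. Relative to the median gene (0.14) 27 were higher (0.858%) and 42 lower (1.33%). *Plcl1* rose from 50.8 CPM (33.9 to 60.5) to 167 CPM (137 to 201), a log2 ratio of 1.72 (1.11 to 2.41), and *Tapbp*, tapasin, from 14 to 325 counts (1.68, 0.91 to 2.57). *Lef1*, a transcription factor of naive T cells, fell from 524 to 192 CPM (−1.45, 7 of 8 sublibraries), and *Bach2*, which restrains effector differentiation, from 695 to 307 CPM (−1.18), with overlap between days. Of 15 T cell subset and checkpoint genes tested, 8 were above and 7 below the median gene, *Lef1* fell and none rose past 2-fold. *Pdcd1*, which encodes PD-1, was 36.9 and 72.7 CPM (0.98), *Cd4* 85.4 and 157 CPM (0.88) and *Tox* 702 and 1121 CPM (0.68). *Dab2* (1.41), a macrophage gene, and *Sh3bgrl* (1.33) overlapped between days, and summed macrophage markers in the gate were 224 and 418 CPM. By cluster classes *Plcl1* (0.92), *Tapbp* (0.70), *Dab2* (0.65), *Sh3bgrl* (0.59) and *Bach2* (−0.88) did not reach 2-fold.

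In B cells, 58 of 3270 genes rose (1.77%) and 15 fell (0.459%), and relative to the median gene 39 were higher (1.19%) and 20 lower (0.612%). The highest were *Chn2* (8 to 163 counts, 2.83, 1.82 to 4.07), *Ust* (1.91), *Nav1* (1.81), *Grk3* (1.68) and *Gramd1b* (1.61), the last at 0.79 after doublets were removed. Doublets made up 15.2% of gated B cells at day 7 and 27.3% at day 14. Summed B cell markers in the gate were 8022 and 6052 CPM, those of macrophages 636 and 1000 CPM, of cDC2 129.8 and 322 CPM and of T cells 12.98 and 47.3 CPM, and their part in these ratios was not tested. *Sash3* fell (−1.21), with overlap between days. *Rpph1* (−1.06, overlapping, and −0.95 without sublibrary s2) was lower in each of the 9 gates, by −0.61 to −1.38. Its direction held in 4 of 8 sublibraries in the endothelial gate and in 7 of 8 in the T cell gate.

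In the endothelial gate 4 of 9 heat shock and stress genes rose, where 2.57% of all genes did. In the proximal tubule gate 3 of 10 rose, where 11.9% of all genes did, among them *Hsph1* (120 to 247 CPM, 1.04). *Hspa1a*, among the 4 of the endothelial gate, passed the level limit through day 14 alone, and such entry favours genes that rose. Of 3498 genes tested in the endothelial gate, 90 rose (2.57%) and 40 fell (1.14%), and relative to the median gene (0.10) 67 were higher (1.92%) and 51 lower (1.46%). *Hsph1* rose from 57.9 CPM (20.4 to 115.5) to 244 CPM (135 to 459), a log2 ratio of 2.08 (1.62 to 2.56), *Hspa1a* from 29.0 to 106 CPM (1.87) and *Hsp90aa1* from 153 to 404 CPM (1.40), and 8 of 9 heat shock genes were above the median gene. *Ehd3*, enriched in glomerular endothelium, fell from 279 to 89.2 CPM (−1.65), *Chrm3* from 1881 to 654 CPM (−1.52), *Bcam*, a laminin receptor, from 79.0 to 25.9 CPM (−1.61) and elastin (*Eln*) from 190 to 33.3 CPM (−2.51, 7 of 8 sublibraries). *Tec* (1.86), *Il10ra* (1.79) and *Dapp1* (1.72), known from leukocytes, were among the 5 highest. They overlapped between days, as did *Hspa1a*, *Ehd3* and *Bcam*. Summed macrophage markers in the gate were 332 CPM at day 7 and 691 CPM at day 14, those of stroma 34.2 and 7.98 CPM, and their part in these ratios was not tested.

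In the proximal tubule gate, of 135 and 169 cells, 7 of 10 transport genes tested fell and 6 of 13 injury genes tested rose. Some of these injury genes passed the level limit only through day 14. Of 3389 genes tested, 402 rose (11.9%) and 144 fell (4.25%), and relative to the median gene (0.34) 161 were higher (4.75%) and 282 lower (8.32%). The 546 genes past 2-fold became 916 without doublets, 964 by the mean over cells and 312 without the mitochondrial limit. All 10 tubular transport and metabolism genes tested were below the median. *Miox*, the inositol oxygenase of proximal tubule, fell from 341 to 72.9 CPM (−2.23), *Pck1*, the gluconeogenic enzyme, from 456 to 137 CPM (−1.73), *Fbp1* from 296 to 104 CPM (−1.51) and the glucose transporter *Slc5a2* from 334 to 139 CPM (−1.27). *Rida* (−2.26) and *Prdx5*, a peroxiredoxin (−2.26), fell as well, and so did *Cpne4* (−3.61), from 59 to 6 counts.

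Of 13 tubular injury genes tested in this gate, from a list of 23, 6 rose and 11 were above the median. *Vcam1*, *Havcr1* and *Cp* were under the level limit at day 7 and passed it through day 14 alone. Such entry favours genes that rose, so these counts do not describe the whole list. *Vcam1*, a marker of proximal tubule cells that fail to repair, rose from 10 to 119 counts (17.4 to 167 CPM, 3.26, 2.33 to 4.36). *Havcr1*, which encodes KIM-1, was 13.9 and 107 CPM (2.93, 5 of 8 sublibraries), *Cp* 47.0 and 371 CPM (2.98) and *Spp1* 196 and 835 counts (1.78, 7 of 8 sublibraries). *Cdh6*, a cadherin of developing tubules, went from 3 to 105 counts, a log2 ratio of 4.82 with a counting interval of 3.23 to 7.12, and *Dcdc2a* from 6 to 141 counts (4.24, 3.08 to 5.71). *Pdgfd*, a platelet-derived growth factor, rose from 12 to 129 counts (3.11, 2.26 to 4.10, and 0.90 by cluster classes), and *Il34*, a ligand of the macrophage growth factor receptor, from 38.3 to 195 CPM (2.35). Sublibraries of the 2 days did not overlap for *Pdgfd* and *Rida* and overlapped for *Cdh6*, *Dcdc2a*, *Vcam1*, *Cp*, *Cpne4*, *Prdx5* and *Miox*. The lowest sublibrary was at 0 CPM at day 14 for *Cdh6* and *Vcam1*, and at day 7 for *Cpne4*. Direction in such a sublibrary rested on the 0.5 added to counts and on depth. For these genes the counts themselves do not show the same direction in all 8 sublibraries.

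The proximal tubule gate held different cells on the 2 days. Of gated cells, 49.6% lay in cluster 15 at day 7 and 8.88% at day 14, and 33.3% and 61.5% in cluster 11. Doublets were 16.3% and 33.1% of the gate. Macrophage markers summed to 477 and 1034 CPM, and 5 of 7 MHC class II genes tested rose in the gate. Their part in the results was not tested.

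**Figure D5:**
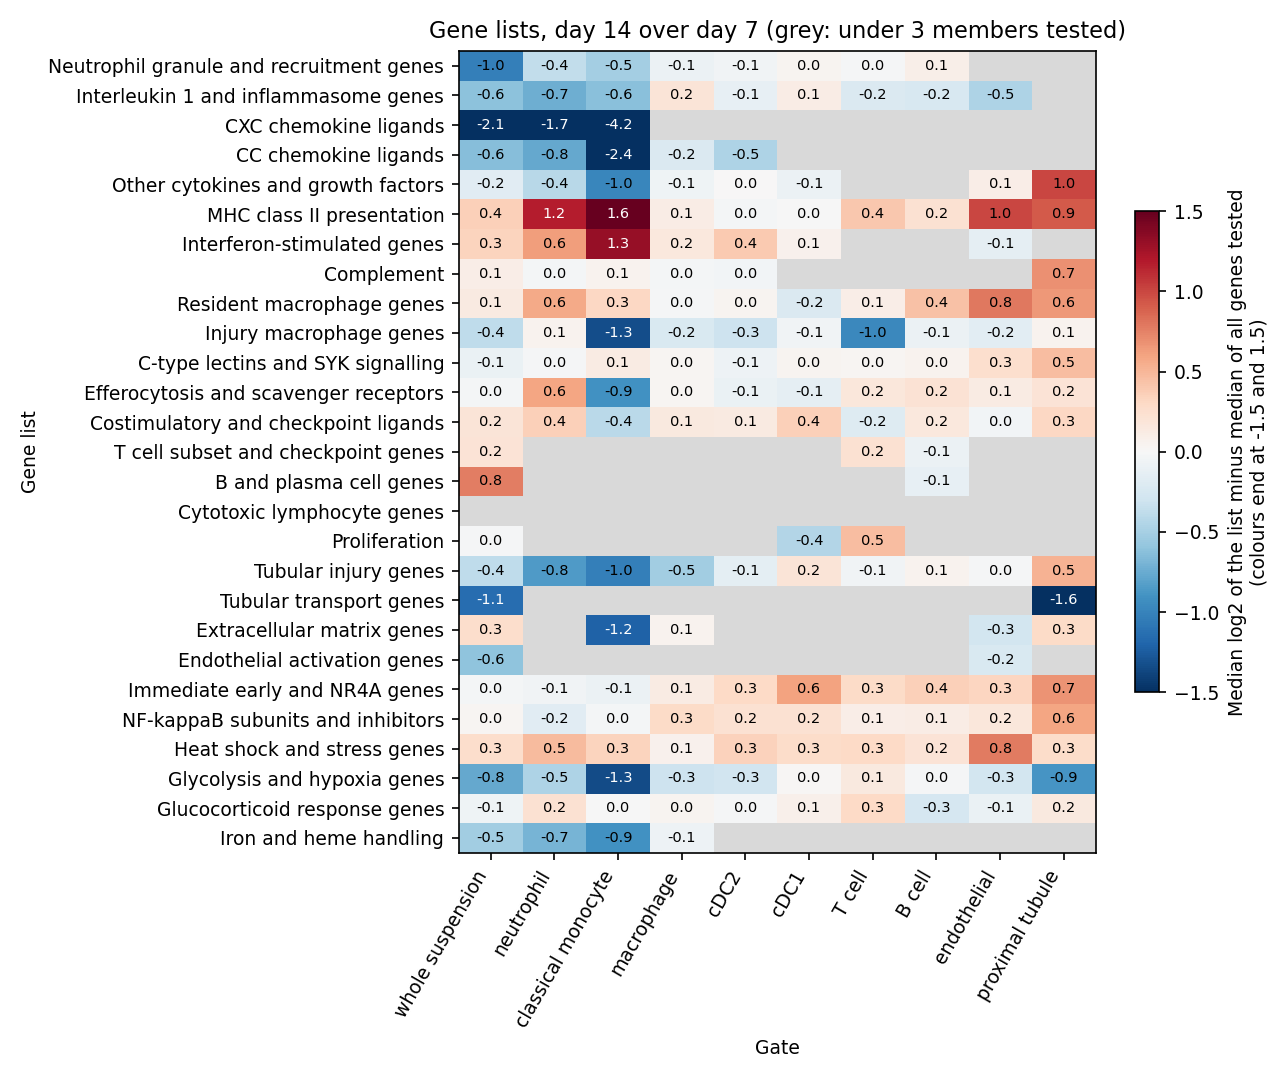
Median log2 ratio of each gene list minus the median of all genes tested, in the whole suspension and 9 gates, with the value printed in each cell (grey where fewer than 3 members passed the level limit). CXC chemokine and glycolysis lists are low in the classical monocyte gate and MHC class II is high there, and transport genes are low in the proximal tubule gate.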

How the data were processed

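The authors deposited a cell by gene table of counts for split-pool barcoded single cells (Evercode WT v2) with a cell table holding each barcode's condition as other, non-count information; reads had been processed by them with the Parse Biosciences pipeline against mm10 (GRCm38). Raw counts from the 2 vehicle conditions were used as deposited. The deposited totals equalled the matrix totals in 120281 of 120281 barcodes and the gene numbers in 120280. The study's additional limit of 1.5% ribosomal counts was used as an alternative. It would remove 4.98% and 4.23% of kept cells.

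Counts were summed per condition and gate and expressed as CPM. The level limit was 20 CPM averaged over both days in the whole suspension and 50 CPM in gates with at least 100 cells on both days. A gene can pass this limit through its level on a single day, which favours genes that changed. Any tested gene printed with a level under the limit on 1 day passed through the other day alone. Log2 ratios carried no pseudocount, except 0.5 in the sublibrary ratios behind SD and direction. A sublibrary without counts of a gene on both days thus took its direction from depth alone. Intervals were conditional binomial for ratios, Clopper-Pearson for shares and exact Poisson for counts. Gate scores were weighted log values per 10000 counts. Clusters came from the Leiden method (resolution 1, 40 components, 3000 variable genes). Doublets were cells with over 0.5 simulated doublets among 30 neighbours. Python 3.11.15, scanpy 1.11.5, scipy 1.17.1 and leidenalg 0.10.2 were used, with edgeR 4.0.16 for trimmed mean (TMM) scaling only. The comparison was tested on simulated data.

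Named genes were the 10 highest and 10 lowest ratios in the whole suspension and the 5 and 5 in each gate. They were taken from genes with the same direction in all 8 sublibraries after 0.5 was added to counts. Predicted, mitochondrial, ribosomal RNA and gate marker genes were left out. Members of 27 gene lists (522 of 524 genes matched) were named too. Members and lists were chosen with earlier results of these data known. Promoters came from RefSeq, GRCm38.p6. Alternatives covered cell limits, doublets, classing, depth, scaling, level limits and each sublibrary left out. All other conditions were not used here. Some items that the rule names are not reported here.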

Additional observations from a re-analysis of the deposited data

Results flagged for a closer look

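The share of unassigned cells at day 7 in sublibrary s6 was 16.3%, against 14.7% in the next highest sublibrary and 13.5% in the lowest. It stood apart from the others by Dixon's criterion for 8 values, among 20 pairs of a share and a condition looked at, and chance alone marks about 1 in 20.

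In 7 genes the direction past 2-fold was opposite in a pair of gates. All 8 sublibraries had the direction of their gate after 0.5 was added to counts. These differences were not tested. *Mertk*, a receptor for apoptotic cells, had log2 ratios of 1.31 in neutrophils and −1.22 in classical monocytes. *Sdc4*, syndecan 4, had 1.11 and −1.11, and *Sh3pxd2b* 1.25 and −1.11, in the same gates. *Bach2* had 1.12 in neutrophils and −1.18 in T cells. *Egr3*, an early-response transcription factor, had −1.40 in neutrophils and 2.11 in cDC1. *Lamc1*, a laminin chain, had −1.97 in classical monocytes and 1.19 in T cells. *Nt5e*, the enzyme CD73 that makes adenosine, had −3.53 in classical monocytes and 1.30 in the proximal tubule gate.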

How the results depend on the processing

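With 1 pool per day nothing here separates the day from the pool, and counting error limits low genes. Shares of classes with at least 40 cells on both days kept their direction apart from those of NK and B cells, whose ratios lay near 0. The balance of higher and lower genes turned in places: relative to the median gene, more were lower than higher in the neutrophil, classical monocyte, cDC1, T cell and proximal tubule gates, where more were higher before, and with no filter beyond 3 counts more were higher in the whole suspension. Leaving out each sublibrary moved the log2 ratio of the NK share from −0.13 to 0.19 and of the B cell share from −0.07 to 0.07. All 110 named ratios kept their direction, and 85 stayed past 2-fold under each alternative run. The cause of the shifts below was not tested except where stated. Scaling to the median gene, the alternatives for composition-held counts and removal of the mitochondrial limit were chosen after seeing the data.

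Classing by cluster gave log2 share ratios of −0.13 for classical monocytes, 0.15 for macrophages, 0.84 for cDC1, 1.16 for T cells and −0.56 for proximal tubule, and 31, 58 and 13 genes past 2-fold in classical monocytes, macrophages and cDC2 (from 380, 17 and 21). Thinning to 500 counts, which left 48.5% and 49.8% of cells without a class, gave −1.03 for classical monocytes, 1.55 for nonclassical monocytes, 0.87 for macrophages and 1.22 for cDC2. More than 500 genes per cell gave −1.41 for neutrophils and 0.48 for macrophages. Without the mitochondrial limit the loop of Henle share had −1.21 and proximal tubule 312 genes.

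TMM scaling left 19 genes at least 2-fold higher in the whole suspension. Relative to the median gene 17 were higher and 126 lower, 5 and 62 with composition held, and 26 passed in cDC1. The mean over cells gave 122 lower genes and 964 in proximal tubule. Without doublets cDC1 had 69 and proximal tubule 916. With no filter beyond 3 counts, which adds genes of few counts, 3550 genes were higher and 1548 lower, and the gates had 4163 (neutrophil), 3894 (classical monocyte), 4089 (macrophage), 3880 (cDC2), 3119 (cDC1), 4915 (T cell), 3360 (B cell), 3276 (endothelial) and 4324 (proximal tubule). With at least 100 CPM, which tests fewer genes, 5 were higher and 28 lower, and the gates in that order had 85, 180, 10, 10, 24, 24, 21, 44 and 250.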
